A study of Rattus norvegicus with 32 samples.

Results

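Some genes were counted at a clear level in part of the hippocampal libraries and near 0 in the rest, with few libraries in between. To find them, each table of 16 libraries was scaled to CPM, the count set to a common library total, the values of each row were put on the scale log2(CPM + 0.1) and sorted, and the largest gap between neighbouring values was taken. A row was kept when that gap was at least 2, with 2 or more libraries on each side and a mean of at least 1 CPM on the high side. Histocompatibility (RT1-), protocadherin and ribosomal protein symbols, Dsp and Ttr were left out. Of 32883 rows, 69 met this rule in either table, 25 in the male table and 50 in the female table, and 6 met it in both. The gap chose these genes, so the gaps and the levels of the high and low sides are given as a description with no test. The diet labels played no part in the choice, and whether the states followed the diet groups is the question asked of them here.

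The series holds 32 Sprague-Dawley rats at 65 days of age, 4 of each sex in each of 4 groups. IS rats were always iron sufficient, and ISch rats were iron sufficient with choline added to the diet of the pregnant dam. FID rats came from dams fed an iron-deficient diet during gestation and early lactation and were iron replete afterwards, and FIDch rats had in addition the prenatal choline. The labels call the last 2 groups iron deficient, and the FID names are those of the study. All males were sequenced in batch I after extraction with one kit and all females in batch II after extraction with another, so sex, batch and kit cannot be told apart. The study used 1 male from each litter. No source used here says from how many litters the females came, so their p-values measure only the spread between these rats.

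Iron serves as a cofactor of many enzymes of the developing brain, and choline is a precursor of acetylcholine and membrane lipids and a donor of methyl groups for DNA and histones. The hippocampus, a structure needed for learning and memory, is among the brain regions sensitive to both. The genes described here share no pathway: they were grouped by their counts alone, and each is introduced by what it is known to do. Since whole tissue was sequenced, fewer cells of a type and less RNA per cell cannot be told apart.

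Totals ran from 3515806 to 9517503 counts in the male libraries and from 18439999 to 26616318 in the female libraries, so a count of 0, which allows up to 3 counts at 95% confidence for counting error alone, says less in males than in females. Of 8 hippocampal neuron markers, 7 were counted in every library. The eighth, Fibcd1, is one of the genes described here. The Y-linked Eif2s3y was counted at 64.9 to 84.7 CPM in the 16 males, at 0 in 15 of the females and at 15.4 CPM (297 counts) in the library labelled female FID 2. Kdm5d, also on the Y chromosome, was at 48.7 to 60.7 CPM in males, at 9.75 CPM in female FID 2 and at 0 in the other 15 females. The numbers of female genes chosen and called are given below with and without it. In males the libraries ISch 1, ISch 2 and FIDch 2 carry names of another form than the rest. Female FIDch 4 lay far from the rest of its group over all genes with enough counts. The chi-square per gene, which grows with differences beyond counting noise, was 22.4 to 25.2 between it and the other FIDch females. In the other pairs within female groups it was 4.23 to 14.3. Choroid plexus markers summed to 93.7 CPM in male FID 4 and to at most 7.04 CPM in the other males, and pituitary markers summed to 123 CPM in female IS 3 and to at most 4.09 CPM in the other females.

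The high state mostly cut across the diet groups. In males no gene of the 25 had every library of each group on one side. At least 1 group held both states in all 25, with 1 such group for 1 gene, 2 for 9 genes, 3 for 9 genes and all 4 for 6 genes. In females 2 of the 50 genes, Ephx2 and AABR07031918.1, had each group whole on one side. A further 9 genes had both states in 1 group, 27 in 2 groups, 7 in 3 groups and 5 in all 4. A split along whole groups needs a high side the size of 1, 2 or 3 full groups of 4 libraries. In males 2 genes had 4 high libraries and 2 had 8, and in females 4 genes had 4 and 1 had 8. For every other gene the number of high libraries alone fixed that some group held both states. Among all rows that met the other parts of the rule, with a largest gap of whatever width, 0.459% of 6531 rows in males and 0.824% of 6554 rows in females split along whole groups.

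**Figure D1:**
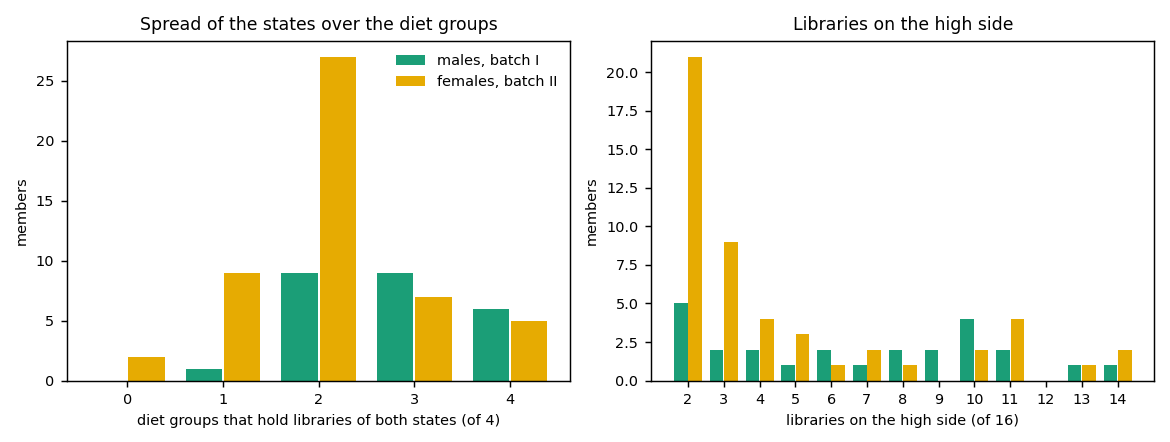
Number of genes by the count of diet groups that hold libraries of both states (left) and by the count of libraries on the high side (right), for males (batch I) and females (batch II); both vertical axes count genes. In females 34 of 50 genes were high in only 2 to 4 libraries, against 9 of 25 in males.

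Pairs of libraries from the same group were in the same state for a median of 62% of the genes in males and 72% in females. For pairs from different groups these medians were 60% and 66%. The range over pairs was wide, from 28% to 84% within groups and 32% to 88% between groups in males, and from 56% to 86% and 42% to 90% in females. The median male library was high in 10 genes, with a range of 7 to 16, and the median female library in 15, with a range of 10 to 20.

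**Figure D2:**
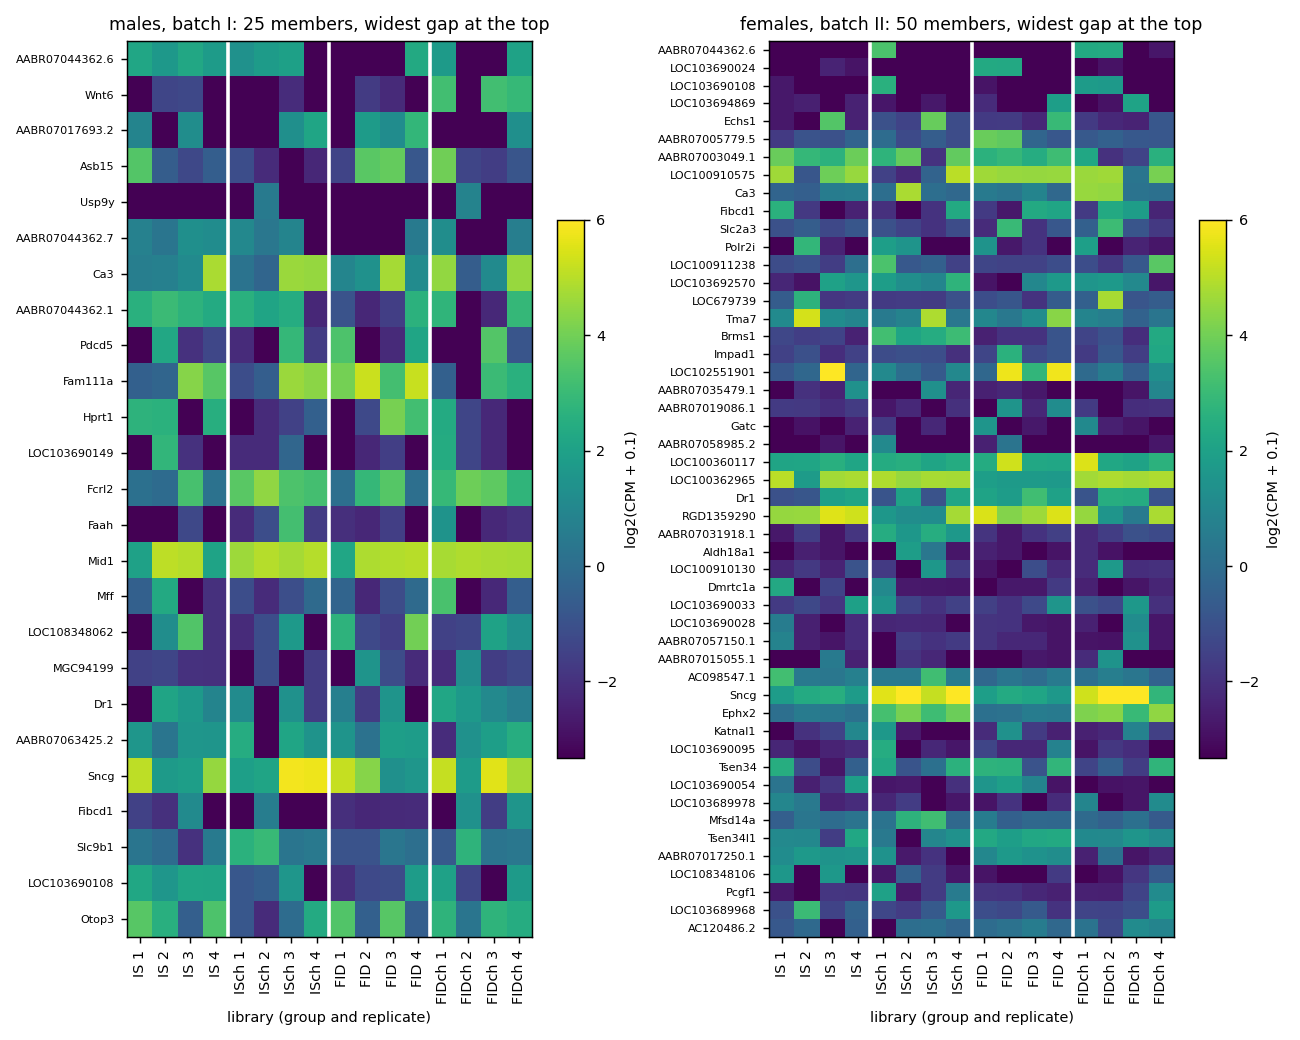
Level of each gene in each library as log2(CPM + 0.1), for the 25 genes of the male table and the 50 of the female table; rows run from the widest gap at the top to the narrowest, columns are libraries, white lines part the diet groups, and values above 6 share the top colour. In females Ephx2 and Sncg form blocks that coincide with ISch and most or all of FIDch, while most other rows change state inside groups.

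The 4 diet groups were then compared by edgeR's quasi-likelihood test fitted to the whole table of each batch, with Benjamini-Hochberg adjustment over all rows tested. In males 19 of the 25 genes passed the filter on low counts and none had an adjusted p under 0.05, where 0.748% of all 14314 rows tested did; 4 of the 19 had an unadjusted p under 0.05, and DESeq2 called none either. In females 33 of the 50 passed the filter and 8 were called, where 5.34% of 14975 rows were. A gene that passes the filter only through the groups in which it is high has to differ, so these counts are not read as enrichment. The 8 were Ephx2, AABR07031918.1, Sncg, LOC100362965, Brms1, AABR07005779.5, LOC103690054 and Mfsd14a.

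In the comparisons with IS, the study's criterion was an absolute log2 fold change over 0.2 with an unadjusted p under 0.05. In males this was met by 4 of 14 genes tested in FID, 4 of 14 in ISch and 1 of 14 in FIDch, beside 4.62%, 8.06% and 6.12% of all rows. None of these genes had an adjusted p under 0.05, a level reached by 0%, 0.208% and 0.131% of all rows. In females it was met by 7 of 22 genes in FID, 9 of 21 in ISch and 10 of 22 in FIDch, beside 6.47%, 10.3% and 8.98% of all rows. Of those, 0, 4 and 3 had an adjusted p under 0.05, where 0.191%, 2.54% and 0.907% of all rows did. Among these, Brms1 and AABR07031918.1 in ISch and AABR07017250.1 in FIDch passed the filter only through the group where they were high. These counts are therefore not read as enrichment either. The median log2 fold change of the female genes tested was 0.03 in FID, 0.12 in ISch and 0.23 in FIDch, and that of all rows was 0.00 in each. The male medians were -0.04, 0.43 and -0.57, and those of all rows -0.01, 0.00 and 0.01. All 3 comparisons of a batch share its 4 IS libraries.

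Among the named genes described next are Ephx2, Sncg and Brms1 of the female table, Otop3 and Slc9b1, which were chosen in the male table alone, and the male Wnt6. RefSeq's promoters of the 4 of these 6 genes that its table holds are shown for build GRCr8, from 250 bases before to 50 bases after the start, each read 5′ to 3′ along the gene. Capitals mark the motifs CCAAT and GGGCGG on either strand; TATAAA was searched too. TATAAA is in 14.2% of all 33469 promoters of the table, CCAAT in 37.5% and GGGCGG in 33.1%.
Sncg (chr16:9711287-9711586, minus strand): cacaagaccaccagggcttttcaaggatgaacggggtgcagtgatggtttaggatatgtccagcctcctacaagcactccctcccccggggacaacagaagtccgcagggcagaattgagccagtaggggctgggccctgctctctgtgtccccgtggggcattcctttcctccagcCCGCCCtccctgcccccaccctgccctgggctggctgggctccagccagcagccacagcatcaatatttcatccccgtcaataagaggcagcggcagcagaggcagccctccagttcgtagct
Wnt6 (chr9:83778302-83778601, plus strand): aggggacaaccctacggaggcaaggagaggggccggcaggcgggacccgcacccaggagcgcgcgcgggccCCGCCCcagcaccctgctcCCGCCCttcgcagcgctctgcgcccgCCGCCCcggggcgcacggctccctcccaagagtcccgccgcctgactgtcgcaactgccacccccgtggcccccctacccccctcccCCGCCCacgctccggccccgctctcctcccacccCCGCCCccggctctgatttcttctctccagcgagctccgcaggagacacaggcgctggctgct
Brms1 (chr1:211774892-211775191, plus strand): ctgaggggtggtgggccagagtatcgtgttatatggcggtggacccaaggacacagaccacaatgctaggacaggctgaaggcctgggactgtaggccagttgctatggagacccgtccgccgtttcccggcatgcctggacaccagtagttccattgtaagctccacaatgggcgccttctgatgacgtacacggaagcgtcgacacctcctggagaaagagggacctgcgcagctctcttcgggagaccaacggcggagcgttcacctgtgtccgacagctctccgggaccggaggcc
Otop3 (chr10:101076113-101076412, plus strand): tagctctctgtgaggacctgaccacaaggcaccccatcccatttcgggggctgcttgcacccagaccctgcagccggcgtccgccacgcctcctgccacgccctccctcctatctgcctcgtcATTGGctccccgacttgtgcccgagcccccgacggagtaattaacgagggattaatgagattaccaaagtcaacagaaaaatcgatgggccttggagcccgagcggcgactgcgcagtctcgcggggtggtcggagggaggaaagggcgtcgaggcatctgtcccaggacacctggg
The Wnt6 window holds GGGCGG or its reverse complement 5 times and the Sncg window 1 time. The Otop3 window holds CCAAT 1 time, on the reverse strand, and the Brms1 window none of the 3 motifs.

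Ephx2 encodes soluble epoxide hydrolase, which breaks down epoxides of fatty acids. Its female levels were 0.951, 1.38, 1.24 and 1.01 CPM in IS and 0.974, 1.04, 1.41 and 1.31 CPM in FID. They were 9.39, 16.8, 8.5 and 14.8 CPM in ISch and 18.4, 20.2, 7.59 and 21.7 CPM in FIDch. Both choline groups thus lay wholly above both groups without choline. Against IS, Ephx2 rose by 3.41 ± 0.25 (log2 fold change ± SE, n = 4 rats per group) in ISch, with an edgeR adjusted p of 5.88e-05. In FIDch it rose by 3.86 ± 0.33, with an edgeR adjusted p of 0.000433. In males the largest gap of Ephx2 was 1.76, under the required 2, and high and low levels stood side by side inside every group. The male values were 2.61, 1.86, 10.5 and 16.7 CPM in IS, 2.27, 2.27, 18.7 and 1.16 in ISch, 1.53, 12.5, 1.06 and 9.9 in FID, and 11.9, 2.84, 12.1 and 18.4 in FIDch. The log2 fold change in male ISch was -0.40 ± 0.79 (edgeR adjusted p = 0.88), and the change was 3.81 larger on the log2 scale in females than in males (edgeR adjusted p = 0.0427 over all rows).

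Sncg encodes gamma-synuclein, a neuronal protein of the synuclein family, and met the rule in both tables. In females it was counted at 3.45, 5.1, 5.7 and 3.41 CPM in IS, 3.61, 5.13, 4.4 and 3.03 in FID, 47.9, 82.3, 36.5 and 68.7 in ISch, and 40.1, 71.0, 78.5 and 7.01 in FIDch. Only FIDch 4 among the choline libraries stayed on the low side, and it is the library that lay far from its group over all genes. Sncg rose by 3.72 ± 0.27 in ISch (edgeR adjusted p = 5.61e-05) and by 3.46 ± 0.60 in FIDch (edgeR adjusted p = 0.0286). The call in FIDch was lost when any IS library, FIDch 1, FIDch 2 or FIDch 3 was left out, with an edgeR adjusted p of up to 0.113. In males 9 of 16 libraries were high, with 2, 2, 2 and 3 of the 4 in IS, ISch, FID and FIDch. The male low side ran from 2.46 to 4.29 CPM and the high side from 19.8 to 57.6 CPM, so that the states looked alike in the 2 sexes while their places in the groups did not. Without FIDch 4 the Sncg states in females followed the groups wholly, with both choline groups high.

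Otop3 belongs to the otopetrin family of proton channels and met the rule in the male table only. Its female levels were 0.651, 0.537, 0.486 and 0.506 CPM in IS and 0.325, 0.57, 0.942 and 0.319 in FID, with 9.19, 5.64, 7.03 and 5.08 in ISch and 10.6, 4.25, 1.21 and 5.02 in FIDch. The choline groups did not overlap the others here either, and FIDch 3 was nearest to them. Otop3 rose by 3.62 ± 0.23 in ISch (edgeR adjusted p = 3.73e-05) and by 3.25 ± 0.56 in FIDch (edgeR adjusted p = 0.0275), the latter lost without any IS library or FIDch 2, with an edgeR adjusted p of up to 0.117. To pass the filter against IS in the ISch comparison, Otop3 needed the high ISch libraries, since IS 3 fell just short. That rise is therefore a description of Otop3. In male ISch it went the other way, at 0.479, 0.119, 0.877 and 5.15 CPM against 11.8, 5.72, 0.601 and 10.4 in IS, with a log2 fold change of -2.05 ± 0.75 and an edgeR adjusted p of 0.423. The 2 sexes differed in this comparison by 5.67 on the log2 scale (edgeR adjusted p = 0.0076 over all rows).

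Slc9b1, a sodium/hydrogen exchanger family member, showed the opposite arrangement in females. It was counted at 5.16, 5.22, 4.33 and 5.1 CPM in IS and 2.84, 4.51, 4.76 and 3.74 in FID, and at 1.82, 0.325, 1.84 and 0.543 in ISch and 0.277, 0.488, 2.23 and 0.663 in FIDch. No choline library reached the lowest of the others. Slc9b1 fell by 2.12 ± 0.39 in ISch (edgeR adjusted p = 0.0207) and by 2.47 ± 0.46 in FIDch (edgeR adjusted p = 0.0378). Both falls are a description, because against IS the gene passed the filter only with the high IS libraries. Each call was lost without 1 of several libraries, namely IS 1, IS 2, IS 4 or ISch 4 for ISch and any IS library, FIDch 1 or FIDch 2 for FIDch, with an edgeR adjusted p of up to 0.0802 and 0.124. In males Slc9b1 was high in ISch 1, ISch 2 and FIDch 2 alone, at 6.11, 7.75 and 6.54 CPM, against 0.15 to 1.32 CPM in the other 13. These are the 3 male libraries with another form of name, and in the same 3 Ephx2 and Sncg were low.

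**Figure D3:**
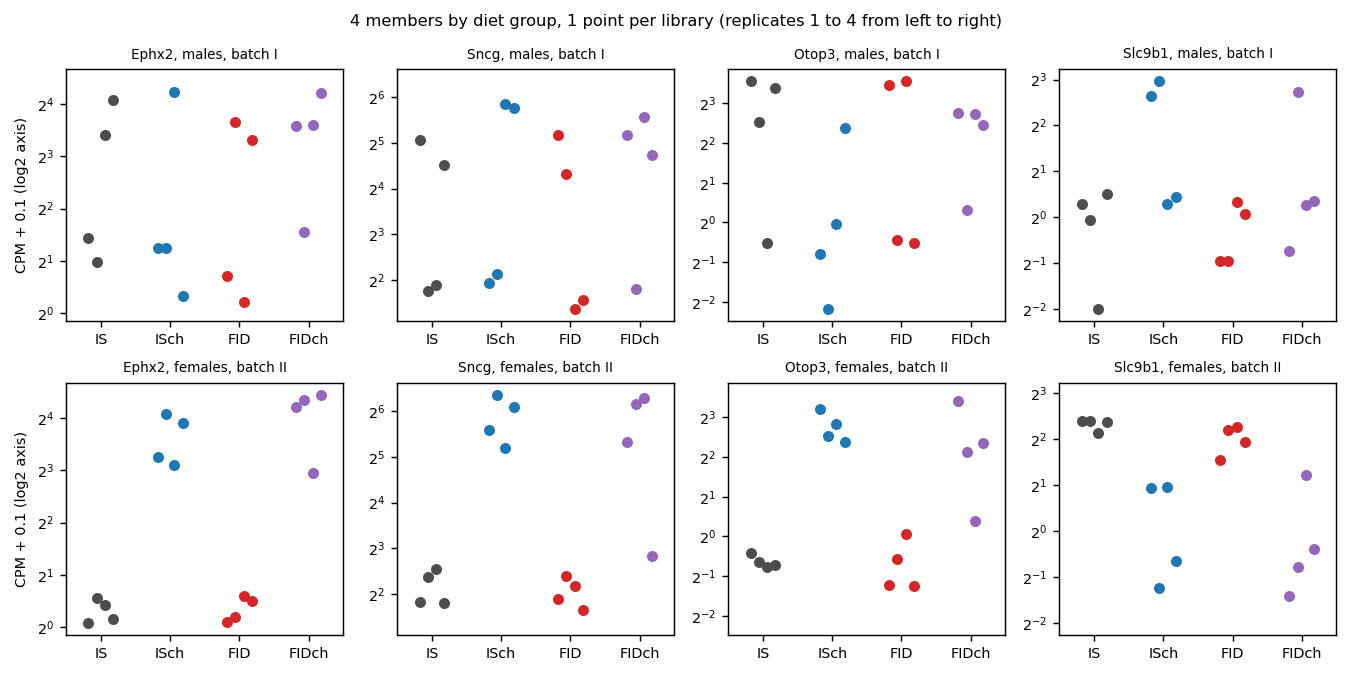
Levels of Ephx2, Sncg, Otop3 and Slc9b1 by diet group in males (top) and females (bottom), as CPM + 0.1 on a log2 axis shared by both sexes of a gene, 1 point per library. In females Ephx2 and Otop3 lie higher and Slc9b1 lower in all 8 choline libraries, while in males Ephx2, Sncg and Otop3 have high and low libraries inside every group and Slc9b1 is high in ISch 1, ISch 2 and FIDch 2 alone.

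Fcrl2, an Fc receptor-like gene, also met the rule in males only and was called between female groups. The 3 genes Otop3, Slc9b1 and Fcrl2 were those with an adjusted p under 0.05 in the female 4-group test among 12 tested of the 19 genes chosen in males alone, where 5.34% of all rows were called. The 4-group call of Fcrl2 (edgeR adjusted p = 0.0301) was lost in 7 of 20 alternatives, namely without IS 2, ISch 2, ISch 3, ISch 4, FID 2, FID 3 or FIDch 1, with an edgeR adjusted p of up to 0.0793. Female Fcrl2 was at 10.4, 11.8, 13.7 and 6.15 CPM in IS and 6.15, 6.13, 4.3 and 5.47 in ISch, and it fell by 0.93 ± 0.22 on the log2 scale (edgeR adjusted p = 0.0488). Leaving out IS 1, IS 2, IS 3, ISch 2, ISch 3 or ISch 4 ended that call, with an edgeR adjusted p of up to 0.139. In males all ISch and FIDch libraries were on the high side, together with IS 3, FID 2 and FID 3. The male high side ran from 6.7 to 21.7 CPM, and the log2 fold change in ISch, 2.13 ± 0.56, had an edgeR adjusted p of 0.266.

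Brms1 encodes a subunit of histone deacetylase corepressor complexes. In females it was counted at 8.9, 4.23, 5.4 and 8.34 CPM in ISch and at 5.02 CPM in FIDch 4, the library that lay far from its group. The other 11 libraries, all of IS and FID among them, lay between 0.0812 and 0.438 CPM. The log2 fold change of Brms1 in ISch was 4.91 ± 0.35, and it is a description, because against IS the gene passed the filter through the ISch libraries alone. Its level went with Egr2, an activity-induced gene, at r = 0.93 over the 16 females, and in males that correlation was 0.01. Npas4, another activity-induced gene, correlated with Brms1 at r = -0.12 in females. With the summed level of the 5 activity-induced genes Fos, Npas4, Arc, Egr2 and Fosb the female r was 0.80. That sum was 178 to 253 CPM in ISch, 246 CPM in FIDch 4, 155 to 184 CPM in IS, 161 to 188 CPM in FID and 140 to 148 CPM in the other FIDch libraries, and its part in the Brms1 split was not tested. In males Brms1 stayed between 0.249 and 2.5 CPM, below every high female library.

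The clone-named AABR07031918.1, for which the files give no other name, was high in the whole of female ISch and nowhere else. Female ISch had 5.41, 2.93, 5.46 and 3.01 CPM, and the other 12 female libraries had at most 0.402 CPM. The log2 fold change in ISch against IS was 4.96 ± 0.42. Since the gene passed the filter through ISch alone, its difference from the other groups is a description and supports nothing. In males it reached at most 0.999 CPM, or 9 counts, in FIDch 3. AABR07017250.1 had the reverse order in females, with 1.87 to 3.19 CPM in all of IS and FID, 2.61 in ISch 1, 0.977 in FIDch 2 and at most 0.157 CPM in the other 6 choline libraries. Its log2 fold change in FIDch, -3.09 ± 0.62, is likewise a description, since the 4 IS libraries carried it past the filter.

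Wnt6, a secreted Wnt ligand, was high in 3 of the 4 male FIDch libraries. FIDch 1, FIDch 3 and FIDch 4 had 8.92, 8.88 and 7.44 CPM, or 71, 80 and 50 counts. FIDch 2 had no count at all, and no other male library had more than 2 counts. With 3 high libraries Wnt6 did not pass the main filter, which asks for the counts in 4. With all rows of at least 1 count in the fit, edgeR's 4-group test gave an adjusted p of 1.15e-07. With a filter of at least 1 CPM in 2 libraries, edgeR's 4-group test gave an adjusted p of 7.01e-05. Since Wnt6 was high in FIDch libraries alone, both values are a description and support nothing. In females, at a larger depth, Wnt6 had at most 5 counts, or 0.247 CPM, in any library. Over the 16 males Wnt6 went most closely with Gas2l1, at r = 0.93, and in females that correlation was -0.41.

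**Figure D4:**
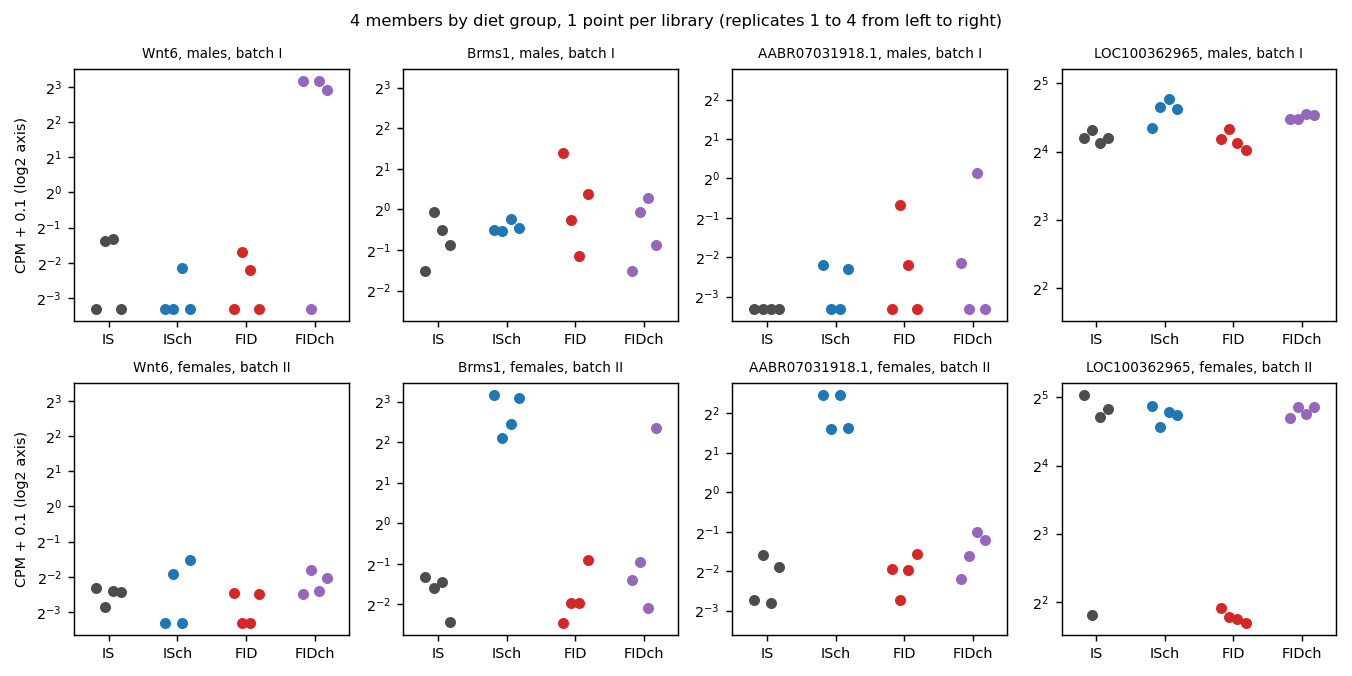
Levels of Wnt6, Brms1, AABR07031918.1 and LOC100362965 by diet group in males (top) and females (bottom), as CPM + 0.1 on a log2 axis shared by both sexes of a gene, 1 point per library. Each gene divides in 1 sex only. Wnt6 is high in male FIDch 1, FIDch 3 and FIDch 4, Brms1 in female ISch and FIDch 4, and AABR07031918.1 in female ISch. LOC100362965 is low in female FID and in female IS 2.

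Besides Sncg, 5 genes had 2 states in both tables. Ca3, the muscle-type carbonic anhydrase III, was at 22.2 to 27.8 CPM in 6 males, namely IS 4, ISch 3, ISch 4, FID 3, FIDch 1 and FIDch 4, and at 0.569 to 2.52 CPM in the other 10. In females it was at 27.8, 23.5 and 22.1 CPM in ISch 2, FIDch 1 and FIDch 2 and at 0.614 to 1.73 CPM in the other 13. Both levels were thus nearly the same in the 2 batches, and neither batch gave a call between the groups (edgeR adjusted p = 0.937 in males and 0.113 in females). Without ISch 2 the female edgeR adjusted p was 0.0152, and DESeq2 gave an adjusted p of 0.047 with all libraries.

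Dr1, a repressor that binds the TATA-binding protein, was high in 11 males at 1.49 to 4.52 CPM and in 10 females at 3.42 to 8.63 CPM. Its low side reached 0.21 CPM in males and 0.461 CPM in females, and each female group but FID held both states. Fibcd1, an acetyl-group-binding receptor known as a marker of hippocampal CA1 neurons, was high in 4 males at 1.43 to 2.83 CPM and in 6 females at 3.57 to 6.06 CPM. In the other libraries it was at most 0.249 CPM, although Wfs1, another CA1 marker, was at 252 to 670 CPM in every female and 341 to 460 CPM in every male.

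AABR07044362.6 and LOC103690108 were split in both tables and went together. In males AABR07044362.6 had 2.51 to 5.01 CPM in all of IS, ISch 1, ISch 2, ISch 3, FID 4, FIDch 1 and FIDch 4 and no count in the other 6 libraries. AABR07044362.1 and AABR07044362.7, from the same clone by their names, were high in the same 10 males. In females AABR07044362.6 and LOC103690108 were high in the same 3 libraries, ISch 1, FIDch 1 and FIDch 2, at 4.95 to 10.1 and 3.19 to 5.95 CPM. Over libraries the 2 rows correlated at r = 0.88 in males and r = 0.99 in females. LOC103690108 met the study's criterion in male FID (log2 fold change -1.90 ± 0.60, edgeR adjusted p = 0.786) and male ISch (-2.08 ± 0.57, edgeR adjusted p = 0.30).

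Several genes bear the name of a pseudogene or near-identical copy. RefSeq lists 4 matched genes as pseudogenes: RGD1359290 of Rpl17, LOC100362965 of Snurf, LOC100360117 of Rpl8 and AABR07003049.1 of Cdc42se2. In females RGD1359290 was at 2.95, 2.28, 2.2 and 26.4 CPM in ISch and 23.0, 2.78, 1.3 and 27.8 in FIDch, against 19.0 to 46.8 CPM in all 8 IS and FID libraries. The row of Rpl17 itself ran from 168 to 176 CPM in the 5 libraries where RGD1359290 was low and from 105 to 163 CPM in the other 11. Across the 16 females the 2 rows correlated at r = -0.81 and their sum stayed between 145 and 191 CPM. In males, where RGD1359290 was not chosen, the correlation was -0.76. There it was at 35.5 to 40.1 CPM in ISch against 16.7 to 24.3 in IS, a rise of 0.88 ± 0.11 (edgeR adjusted p = 0.0036), and at 29.0 to 42.5 CPM in FIDch. In female ISch the log2 fold change was -1.96 ± 0.66 (edgeR adjusted p = 0.172), so that the signs differed between the sexes. How the counting shared reads between a gene and its copies is not stated in the sources used here, and its part in this split was not tested.

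**Figure D5:**
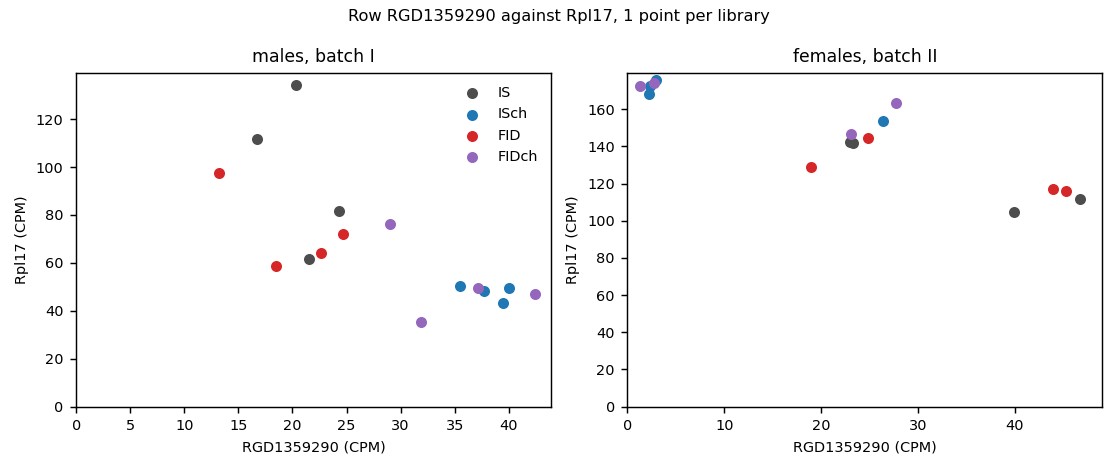
Level of Rpl17 against RGD1359290 in each library, both in CPM, for males (left) and females (right), coloured by diet group. In females the 5 libraries with RGD1359290 at 1.3 to 2.95 CPM, all from the choline groups, have the highest Rpl17 values.

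LOC100362965 was low in every female FID library. In females it was at 3.65, 3.32, 3.24 and 3.11 CPM in FID and 3.38 CPM in IS 2, and at 23.6 to 32.8 CPM in the other 11 libraries. It fell by 2.75 ± 0.50 in FID against IS, with an edgeR adjusted p of 0.0542, and the 4-group test gave an edgeR adjusted p of 0.00239. Without IS 2 its states followed the groups wholly. The Snurf row was at 0.569 to 1.73 CPM in all females. In males LOC100362965 was at 16.2 to 27.2 CPM in every library with no low state, and the Snurf row at 40.1 to 80.4 CPM. Here the choline libraries, at 20.2 to 27.2 CPM, lay just above the others, at 16.2 to 20.1 CPM (4-group edgeR adjusted p = 0.0442, lost in 15 of 21 alternatives and ranging up to 0.103 when 1 library, ISch 2, was left out). The FID change differed between the sexes by -2.71 on the log2 scale (edgeR adjusted p = 0.0139 over all rows).

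A group of rows carries the symbols of widely used genes but was near 0 in most libraries. The purine salvage gene Hprt1 was at 5.15 to 16.8 CPM in 6 males and at most 0.63 CPM in the other 10. Slc2a3, which encodes the main neuronal glucose transporter, had 7.88 CPM in female FID 2 and 8.27 CPM in female FIDch 2 and at most 0.633 CPM elsewhere in females. Echs1, a mitochondrial enzyme of fatty acid oxidation, was at 11.2, 14.01 and 7.69 CPM in female IS 3, ISch 3 and FID 4 and at most 0.474 CPM in the other females, while males ran from 1.99 to 7.96 CPM without a gap of 2. Male Echs1 was called between groups (edgeR adjusted p = 0.0484, lost in 15 of 21 alternatives and ranging up to 0.154 when IS 2 was left out). Tma7 was at 41.7, 28.9 and 20.3 CPM in female IS 2, ISch 3 and FID 4 and at 0.67 to 2.21 CPM in the others. Pdcd5, linked to programmed cell death, was at 4.42 to 11.3 CPM in 5 males and at most 0.446 CPM in the other 11.

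LOC100910130 is a further gene chosen in females and called in males. Of 44 genes chosen in females alone, 15 were tested in males and 4 called between the groups, where 0.748% of all rows were: RGD1359290, LOC100910130, LOC100362965 and Echs1. Male LOC100910130 was at 1.99 to 2.22 CPM in FIDch and 4.58 to 7.72 CPM in IS, a fall of 1.53 ± 0.23 on the log2 scale (edgeR adjusted p = 0.0197). That call was lost without FIDch 1, FIDch 3 or FIDch 4, with an edgeR adjusted p of up to 0.104.

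The same presence in part of the libraries held for the RNA polymerase II subunit Polr2i, high in 5 females at 2.68 to 7.14 CPM, and for the endocannabinoid hydrolase Faah, high in male ISch 3 (9.14 CPM) and FIDch 1 (2.64 CPM). Mff, which acts in mitochondrial fission, and LOC103690149 were high together in male IS 2 and FIDch 1. Gatc, a subunit of a mitochondrial amidotransferase, is carried by 2 rows, of which 1 was high in female FID 1 and FIDch 1 and the other ran evenly from 30.8 to 37.9 CPM in all females. The row symbols are those of the deposited files, and a level near 0 in such a row says only that few reads were assigned to it.

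Other male genes divided inside the groups. Asb15, a substrate adaptor of ubiquitin ligases, was at 11.2, 12.2, 13.7 and 15.5 CPM in IS 1, FID 2, FID 3 and FIDch 1 and at most 0.586 CPM in the other males. Fam111a, a protease linked to DNA replication, was high in all 4 FID males at 9.15 to 37.8 CPM and in 2 males of each other group, with a log2 fold change in FID of 1.65 ± 0.69 and an edgeR adjusted p of 0.786. Mid1, an X-linked ubiquitin ligase, was low in 3 males, IS 1, IS 4 and FID 1, at 3.98 to 4.44 CPM, and at 25.0 to 33.2 CPM in the other 13 and 21.1 to 29.6 CPM in every female. The Y-linked ubiquitin protease gene Usp9y had 11 counts in ISch 2, 6 in FIDch 2 and none in the other 14 males, while Eif2s3y and Kdm5d were steady in all 16. AABR07017693.2 had 1.74 to 7.16 CPM in 8 males and no count in the other 8 or in any female.

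Further female genes rested on few libraries. LOC103690024 and AABR07005779.5 were both high in FID 1 and FID 2 alone, at 4.99 and 4.82 CPM and at 14.6 and 13.2 CPM, and FID 2 is the library with Y-linked counts. AABR07005779.5 was called between the groups (edgeR adjusted p = 0.00451, and 0.0244 without FID 2), and in males it ran from 2.27 to 18.5 CPM with no such gap. Mfsd14a, a transporter-like gene, and the proline synthesis gene Aldh18a1 were high in ISch 2 and ISch 3 alone, at 6.45 and 8.76 CPM and at 3.58 and 1.21 CPM. The call of Mfsd14a (edgeR adjusted p = 0.0191) was lost without either of these libraries, with an edgeR adjusted p of up to 0.123. LOC103690054 was high in IS 1, IS 4, FID 1, FID 2 and FID 3 at 1.1 to 3.73 CPM and in no choline library (edgeR adjusted p = 0.0189, and 0.0449 without FID 2). Only these high libraries carried LOC103690054 past the filter, so its difference between the groups is a description. LOC102551901 had 118, 54.9 and 56.2 CPM in IS 3, FID 2 and FID 4. Its level went with the sum of 6 thalamus and habenula markers at r = 0.76 over the 16 females, and the part of that tissue was not tested. The sum was 57.6 CPM in IS 3, 56.7 in FID 2 and 62.0 in FID 4, and 37.7 to 56.4 CPM in the other females.

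The wide gaps of LOC103694869, AABR07003049.1 and LOC100910575 also cut across the groups. LOC103694869 was high in female FID 4 and FIDch 3 at 3.66 and 4.11 CPM, AABR07003049.1 was low in ISch 3, FIDch 2 and FIDch 3 at 0.15 to 0.268 CPM, and LOC100910575 was at 15.3 to 33.0 CPM in 11 females and at most 1.12 CPM in the other 5. In males LOC100910575 never passed 0.284 CPM. Female FID 2, the library with Y-linked counts, was 1 of the 2 high libraries in 7 of 21 genes. Without it 45 female genes met the rule, 8 were lost, Slc2a3, LOC103690024 and AABR07005779.5 among them, and 3 rows were gained. Ephx2 and AABR07031918.1 still split along whole groups, and 8 of the 50 genes were called between the groups.

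Of the 69 genes, 38 (55.1%) carried a clone or predicted-locus symbol in the deposited files, against 10.9% of the 14458 rows with a mean of at least 1 CPM. Those rows need that mean over all libraries of a table, and the 69 genes on the high side only. The 2 sets thus differ in level, and the difference in share is not read as a result. The rule for the genes named here is given with the methods, and a few genes beyond it, such as Tma7, Polr2i, Faah, Mff, Gatc, Slc2a3, Hprt1, Mid1 and Aldh18a1, were chosen after their values were seen. RefSeq matched 37 of the 69, 33 of them as protein coding. Of the genes chosen in one table alone, the other table put 6 of 19 male genes and 15 of 44 female genes wholly below the midpoint of the gap, 3 and 7 wholly above it, and 10 and 22 on both sides. Among the male genes, 13 of 25 had at most 3 counts in every low library, and among the female genes 11 of 50. Just inside the rule lay Otop3 and LOC103690108 in males, with gaps of 2.08 and 2.09, and AC120486.2 and LOC103689968 in females, with gaps of 2.002 and 2.006. Just outside it lay LOC108348083 and AABR07015066.1 in males, with 1.997 and 1.977, and LOC103692976 and Eno2 in females, with 1.999 and 1.908.

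Genes next to these in RefSeq's order did not share their pattern closely. None of 58 pairs of a male gene and a flanking gene and none of 90 such pairs in females reached an absolute r of 0.8 over the 16 libraries. The median absolute r was 0.30 in males and 0.22 in females. Ca3 with Rsl1 came near the limit, at r = -0.797 in males and -0.627 in females. Sncg with Glud1 was at r = 0.71 in males and 0.60 in females. Against all rows of mean CPM 1 or more, 8 of 50 closest partners in males and 17 of 100 in females passed 0.9. Ephx2 went with Snrpc at r = 0.96 in females and 0.34 in males, and against Nqo2 at -0.94 and -0.72. RGD1359290 went with Acaa2 at 0.94 in females and 0.84 in males. Sncg went with Pdyn, the prodynorphin gene, at 0.90 in females and 0.23 in males. Libraries are the points of each correlation, and they share their diet groups.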

How the data were processed

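Hippocampal RNA of 32 Sprague-Dawley rats was sequenced, in 2 batches that match the sexes. The authors deposited 1 table of raw read counts per gene and batch; the submitters' notes name FastQC, Trimmomatic, HISAT2, featureCounts of Subread and the build Rnor_6.0. Versions, strand and the treatment of reads with several matches are not given in the sources used here. From the deposited counts, CPM on column totals and log2(CPM + 0.1) were computed, and the rule of the opening was applied to each table. Genes and gene lists were chosen with earlier results of these data known. Groups were compared with edgeR 4.0.16 (R 4.3.3; TMM, filterByExpr, quasi-likelihood F-test over 4 groups, and separate fits against IS as in the study), with Benjamini-Hochberg adjustment over all rows tested. DESeq2 1.42.0 was an alternative. Differences between the sexes came from 1 fit of all 32 libraries. The fits were tested on simulated data. Named were the 10 widest gaps per table, genes chosen in both tables, genes following whole groups, at most 10 called genes and the neighbours of the threshold; partners were named at an absolute r of 0.9. Over same-numbered libraries of different groups, 6 of 24 correlations of deviations in males and 5 of 24 in females exceeded 0.1. Over differently numbered libraries 21 of 72 in males and 23 of 72 in females did, so the numbers showed no sign of pairing animals. Every pair of libraries within a group differed by more than counting noise. Sequences are RefSeq's for GRCr8, matched by symbol.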

Additional observations from a re-analysis of the deposited data

Results flagged for a closer look

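Of 107 groups of 4 libraries examined, 20 held a library apart from the other 3, where about 5% are apart by chance if values spread normally. The groups included genes chosen for 2 states in the other table and 2 Y-linked genes in females. The excess over 5% is therefore not read as a result. Among the marker sums in males these were choroid plexus in FID 4 (93.7 CPM), thalamus and habenula in FIDch 2 (52.3 CPM) and activity-induced genes in IS 4 (205 CPM). In females they were pituitary in IS 3 (123 CPM), thalamus and habenula in IS 3 (57.6 CPM) and FIDch 4 (52.2 CPM), blood in FIDch 4 (317 CPM), and activity-induced genes in FID 4 (188 CPM) and FIDch 4 (246 CPM). The Y-linked Eif2s3y (15.4 CPM) and Kdm5d (9.75 CPM) stood apart in female FID 2.

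Single genes stood apart in the table that had not chosen them. In males AABR07003049.1 was high in FIDch 2 (8.53 CPM) and Ephx2 in ISch 3 (18.7 CPM), and LOC103694869 stood apart in ISch 1 (1.80 CPM), FID 2 (2.31 CPM) and FIDch 4 (0.595 CPM). In females Pdcd5 was high in 1 library of each group, IS 4 (9.99 CPM), ISch 3 (12.2 CPM), FID 1 (21.4 CPM) and FIDch 2 (2.93 CPM).

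In 5 genes the change against IS differed between the female and the male table by edgeR's test of the difference over all rows. For ISch the female minus male difference on the log2 scale was 5.67 for Otop3, 3.81 for Ephx2, -4.32 for Slc9b1 and -3.07 for Fcrl2, and for FID it was -2.71 for LOC100362965. Sex, batch and extraction kit cannot be told apart in these differences.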

How the results depend on the processing

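The number of genes depended on the rule's settings. In males, females, either table and both tables it was 25, 50, 69 and 6, and it became 14, 25, 36 and 3 with a pseudocount of 0.5, 49, 81, 117 and 13 with a gap of 1.5, and 9, 17, 24 and 2 with a gap of 3. With a high side of at least 5 CPM the 4 numbers were 16, 21, 35 and 2, and with 3 libraries on each side the female and joint numbers were 27 and 40. Without single libraries they were 22 to 30, 45 to 54, 64 to 73 and 6 to 7. Genes following whole groups were 1 in males with a gap of 1.5, and 0 to 1 without single libraries (Capns1 without FID 4, Wnt6 without FIDch 2). In females they were 1 with a pseudocount of 0.5 or a high side of 5 CPM, 0 with a gap of 3, and 2 to 4 without single libraries.

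Between the 4 groups, males had 1 called gene instead of 0 with all rows, with 1 CPM in 2 libraries, with a likelihood ratio test and without the 3 libraries of another name form (chosen after seeing the data), and 0 to 1 without single libraries; in the filters, Wnt6 then entered the test. Females had 13 instead of 8 with the likelihood ratio test and 7 to 11 without single libraries. At the study's criterion in FID, ISch and FIDch, males had 9, 9 and 6 genes with all rows and 0, 0 and 0 at an adjusted p under 0.05. DESeq2 gave 1 in male FID, and 1 CPM in 2 libraries gave 2 in male FIDch. Females had 24, 20 and 22 with all rows, 0, 4 and 3 at an adjusted p under 0.05, and with DESeq2 3 in FID and 5 in FIDch. Without single libraries males ranged over 2 to 5, 4 to 6 and 1 to 4, and females over 5 to 10, 7 to 11 and 6 to 11. The cause of these changes was not tested.

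The replicate block treats same-numbered libraries as pairs, although the numbers showed no sign of pairing animals. The block gave 0 male and 7 female genes between the 4 groups. For FID, ISch and FIDch it gave 5, 4 and 4 in males and 6, 7 and 8 in females. Male depth, at most 9517503 counts a library, limits what can be said of genes near 0.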
